A study of Mus musculus with 6 samples.

Results

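The widened shared promoters are 1457 accessible regions at gene starts that were present in all 3 ATAC-seq peak lists of NMuMG cells and covered at least 2 times as many base pairs (bp) after 12 h of TGFβ1 as in vehicle. They were 1457 of 8781 shared promoters (16.6%) and of 39435 accessible regions in all. Intervals of 150 bp or more were merged within each list across gaps under 1000 bp, the 3 lists were merged in the same way into union regions, and a union region that held DNA of every list and lay within 1000 bp of an annotated transcript start was called a shared promoter. The members were selected on their measured vehicle and 12 h widths, so these widths are given as a description and carry no test, while the 2 h widths, the position of the added DNA and its sequence did not enter the choice. NMuMG, a single epithelial cell line from the normal mouse mammary gland, spent 6 h without serum and insulin before a treatment of 2 h with vehicle, or of 2 h or 12 h with 5 ng/ml TGFβ1. From the 2 biological replicates of each group the authors made a single list of reproducible peaks, so no spread between replicates exists here and no test between conditions was run. No vehicle collected at 12 h was analysed here, so that the 12 h cells cannot be told apart from cells kept longer without serum.

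At an active promoter the DNA around the start site is kept free of nucleosomes by general transcription factors, by sequence-specific factors such as SP, ETS and NF-Y proteins and by RNA polymerase II, and the transposase Tn5 used in ATAC-seq inserts preferentially into such DNA. The open stretch is flanked by positioned nucleosomes, and remodelling enzymes can shift or remove them when a gene is induced. TGFβ binds receptor kinases that phosphorylate SMAD2 and SMAD3, also signals through MAP kinases to AP-1, and drives an epithelial-mesenchymal transition in NMuMG cells.

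The following sequences show DNA that the 12 h list added to named members with large gains whose 12 h intervals there hold the AP-1 word TGACTCA, and, for contrast, DNA at the start of a member that vehicle cells already had open. Each is read 5′ to 3′ on the gene's strand from NCBIM37 (mm9), and capitals mark the AP-1 word on either strand or the TATA word TATAAA.
Anxa2 intron, chr9:69303269-69303335, plus strand: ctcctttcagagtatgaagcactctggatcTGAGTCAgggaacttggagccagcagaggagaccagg
Mef2d upstream DNA, chr3:87943034-87943100, plus strand: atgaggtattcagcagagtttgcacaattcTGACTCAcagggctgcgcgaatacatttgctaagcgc
Cic intron of a longer transcript, chr7:26064446-26064512, plus strand: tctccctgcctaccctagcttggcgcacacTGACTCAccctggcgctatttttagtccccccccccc
Dsp intron, chr13:38245702-38245768, plus strand: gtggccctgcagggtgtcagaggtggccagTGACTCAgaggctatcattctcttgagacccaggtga
Stat6 intron, chr10:127081223-127081289, plus strand: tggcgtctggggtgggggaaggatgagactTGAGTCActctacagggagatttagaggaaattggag
Zfp36l1 core promoter, chr12:81214001-81214067, minus strand: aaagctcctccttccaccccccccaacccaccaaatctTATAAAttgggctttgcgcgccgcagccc
The AP-1 word of Anxa2 lay 1429 bp downstream of the start site, that of Dsp 2518 bp downstream and that of Stat6 1198 bp downstream. That of Mef2d lay 3227 bp upstream and that of Cic 181 bp upstream. In each of these 5 genes the word fell inside an interval of the 12 h list and outside the vehicle intervals, and in Cic and Stat6 it was already inside an interval of the 2 h list. The Zfp36l1 stretch ended just before the start site and was inside an interval of all 3 lists.

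The lists differed in length, which bears on every width below. Counted as distinct intervals of 150 bp or more, they held 18337 intervals in vehicle, 36021 at 2 h and 36153 at 12 h, and the lists hold no read counts. By the study's reporting summary both vehicle libraries had more mapped and filtered reads than either 12 h library. Each 2 h library had more than the shallower vehicle library and fewer than the deeper. The part of depth in the list lengths was not tested. Over the 15154 regions shared by all 3 lists the median 12 h to vehicle ratio was 1.28, and 19.0% of them had at least 2 times their vehicle width at 12 h. The share was 22.2% among the 6373 shared regions away from start sites (1416 regions). When both TGFβ lists were shortened to their widest intervals, as many as the vehicle list holds, 930 members were found, and 748 when each ratio was divided by the median of all shared regions. Of the epithelial markers, Krt8, Krt18 and Krt19 had an open promoter in all 3 lists and Cdh1 and Cldn4 in both TGFβ lists, while Epcam, Cldn3 and Cldn7 had none, so the lists held 3, 5 and 5 of the 8. The fibroblast markers Col1a1 and Pdgfra were open in all 3 lists, 2 of 4, and 0 of 3 endothelial and 0 of 3 immune markers were open in any. A marker counted as open where a region lay within 1000 bp of a start site, and that of Col1a1 did not hold the assigned start site. The part of list length and of cell state in the widths was not tested.

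Vehicle width divides the ratio that chose the members, so the choice favoured narrow promoters. The widths and shares below are thus description and are not read as a result. The members were narrower in vehicle than the other shared promoters. Their median width in vehicle was 388 bp (95% interval of the median 376 to 398 bp, range 151 to 1748 bp), at 2 h 888 bp (865 to 918 bp) and at 12 h 1061 bp (1034 to 1098 bp). The other 7324 shared promoters had medians of 809.5 bp (vehicle), 959 bp (2 h) and 978 bp (12 h). The members were thus 0.479 times as wide as the others in vehicle, 0.926 times at 2 h and 1.08 times at 12 h. Together they covered 633 kb in vehicle, 1523 kb at 2 h and 1778 kb at 12 h. Of shared promoters 150 to 249 bp wide in vehicle 80.7% were members, against 20.5% of those 450 to 599 bp wide and 2.65% of those of 800 bp or more. The median 12 h to vehicle ratio of the members was 2.60 and the highest 12.1, with 500 members at 3 times or more (5.69% of all shared promoters) and 95 at 5 times or more (1.08%). These intervals and all others below cover counting error alone, and promoters are neither replicates nor independent of each other.

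**Figure D1:**
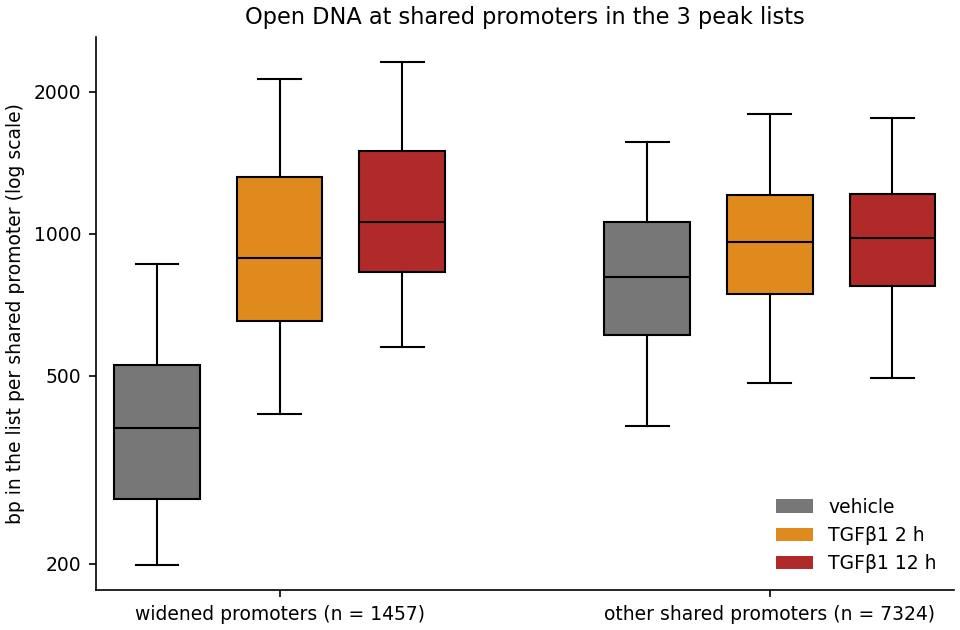
Base pairs covered by the vehicle (grey), TGFβ1 2 h (orange) and TGFβ1 12 h (red) lists at each widened promoter and each other shared promoter, on a log scale. Boxes span the quartiles with the median as a line and whiskers the 5th to 95th percentile of promoters, and the members move from a median of 388 bp in vehicle to 1061 bp at 12 h while the others move from 809.5 to 978 bp.

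The threshold cut through a dense range of ratios, with 170 members from 2 to under 2.1, of which 5 were at exactly 2, and 198 other promoters from 1.9 to under 2. Just inside lay Tomm22, a subunit of the mitochondrial import receptor, with 249 bp (vehicle), 484 bp (2 h) and 498 bp (12 h). Bad, a pro-apoptotic BCL2 relative, had 639, 1349 and 1278 bp, and Zbtb43, a zinc finger gene, had 653, 1266 and 1306 bp. Just outside lay Mrpl10, a mitochondrial ribosomal protein gene, with 502, 556 and 1003 bp. The uncharacterised genes 2310003H01Rik and 1110057K04Rik had 449 bp in vehicle and 897 bp at 12 h, with 871 bp and 480 bp at 2 h. Members and non-members next to the threshold thus did not form separate groups. At 2 h the 3 promoters just inside it were near their 12 h width, as was 2310003H01Rik outside it. Mrpl10 and 1110057K04Rik were near their vehicle width. The 2 h list covered 94.4% of the added DNA at Tomm22 and 100% at Zbtb43, but 4.47% at Bad. The DNA added at Bad by 12 h was thus largely not in the 2 h list.

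To ask when the members were wider, their 2 h widths were compared with both other lists. At 2 h, 968 members (66.4%, Wilson 95% interval 64.0 to 68.8%) already had at least 2 times their vehicle width, where the share was 14.0% for all shared promoters and 16.9% for all shared regions. Their median 2 h to vehicle ratio was 2.30 (2.25 to 2.36). The 2 h ratio is taken over the same vehicle width that the choice used, and the choice favoured small vehicle widths, so part of the distance from all shared promoters was set by the choice and none of it is read as a result. Among promoters of 350 to 449 bp in vehicle the median 2 h width was 854.5 bp in the members and 589.5 bp in the others, and among those of 600 to 799 bp it was 1478 bp and 845.5 bp. Of the 1155 kb that the 12 h list added to the vehicle regions of the members, the 2 h list already covered 70.1%, and 98.5% of their vehicle DNA was still covered at 12 h. For the other shared promoters these shares were 64.8% and 95.4%. Between 2 h and 12 h the median ratio of the members was 1.1. In detail, 1045 members were wider at 12 h than at 2 h, while 407 (27.9%) were narrower, against 41.2% of all shared promoters. At least 2 times the 2 h width was reached by 143 members at 12 h (9.81%), against 2.11% of all shared promoters, and both of these shares contain the 12 h width that chose the members. A late set of 114 members (7.82%) had at most 1.25 times their vehicle width at 2 h, against 55.1% of all shared promoters. Narrower at 2 h than in vehicle were 29 of the 1457 members (1.99%), all of them in the late set, and 18.8% of all shared promoters.

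**Figure D2:**
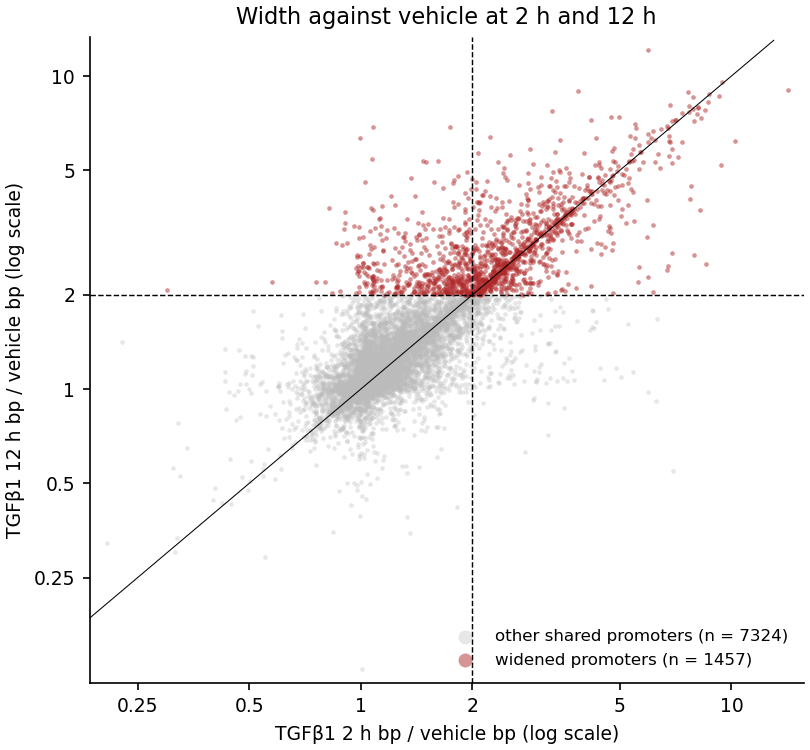
Ratio of 2 h to vehicle width (x axis, log scale) and of 12 h to vehicle width (y axis, log scale) for the 1457 widened promoters (red) and the 7324 other shared promoters (grey), with dashed lines at 2 and a solid line where both ratios are equal. The members lie above the horizontal line by their choice, and 968 of them also lie at or to the right of the vertical one.

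Early and late members were also set side by side in other respects. Members with at least 2 times their vehicle width at 2 h had a median of 357 bp (vehicle), 1061 bp (2 h) and 1069 bp (12 h), and the 114 late members had 448, 471.5 and 1187 bp. The median GC content around the start site was 58.4% in the early and 56.9% in the late members. In the early set 64.0% of the added DNA lay downstream of the start site, and in the late set 69.0%. An AP-1 word in the added DNA was found in 17.3% of the early and 13.2% of the late members.

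The highest 2 h ratios among members with at least 300 bp in vehicle were at Pmepa1, which encodes a membrane protein that restrains SMAD signalling, and at Ltbp4, which encodes a protein that holds latent TGFβ in the matrix. Pmepa1 (chr2:173100005-173102417) had 350 bp (vehicle), 2413 bp (2 h) and 2043 bp (12 h). Ltbp4 (chr7:28115750-28117922) had 318, 2140 and 2172 bp. Both were at 2 h close to their 12 h width or above it. At Parp8, an ADP-ribosyltransferase family gene, the wide state was found at 2 h, with 324, 1995 and 661 bp, and Frk, a SRC-related kinase gene, had 366, 2245 and 1220 bp. Tfip11, a splicing factor gene, had 354, 2108 and 2310 bp, and Ninj2, an adhesion protein gene, had 516, 3053 and 2080 bp. Thus 4 of these 6 promoters were narrower at 12 h than at 2 h. The union regions of Ltbp4 and Ninj2 lay within 1000 bp of the assigned start site but did not hold it.

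Among members no wider at 2 h than in vehicle, the largest 12 h gain was at Cdkn1a, which encodes the cell cycle inhibitor p21. Cdkn1a (chr17:29230443-29232813) had 806 bp (vehicle), 740 bp (2 h) and 2364 bp (12 h), and the 2 h list covered 4.43% of its added DNA. Sdc1, the gene of the cell surface proteoglycan syndecan-1, had 947, 931 and 2256 bp, and Angptl4, the gene of a secreted inhibitor of lipoprotein lipase, had 564, 557 and 1857 bp. Katnal1, a katanin subunit gene, had 888, 884 and 2368 bp, Ttc15 had 692, 624 and 2240 bp, and Sfxn5, a mitochondrial carrier gene, had 1060, 850 and 2327 bp. At Angptl4, Katnal1 and Ttc15 most of the added DNA lay upstream of the start site, at Cdkn1a, Sdc1 and Sfxn5 downstream. The union region of Angptl4 did not hold the start site itself. Myc, a growth-promoting transcription factor gene, showed a like course with 1033, 1050 and 2544 bp, as did Dusp4, a MAP kinase phosphatase gene, with 853, 995 and 2584 bp.

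To locate the added DNA, the 1315 members whose start sites all lay on a single strand were aligned at the start site nearest the middle of their vehicle regions. In vehicle, more members were covered than not from 175 bp upstream to 100 bp downstream. This stretch reached from 300 bp upstream to 475 bp downstream at 2 h and from 350 bp upstream to 575 bp downstream at 12 h. At 250 bp downstream, 24.0% of members were covered in vehicle, 79.2% at 2 h and 88.4% at 12 h, against 77.2%, 86.4% and 87.9% of the other shared promoters. At 250 bp upstream, the shares were 32.7%, 61.9% and 73.5% for members and 69.4%, 77.2% and 79.9% for the others. On both sides the vehicle regions of the members thus ended closer to the start site than those of the others. More of the others were covered than not from 350 bp upstream to 400 bp downstream in vehicle. At 12 h both sets were covered to a like extent at 250 bp downstream. Vehicle and 12 h widths chose the members, so both observations are description and neither is read as a result.

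**Figure D3:**
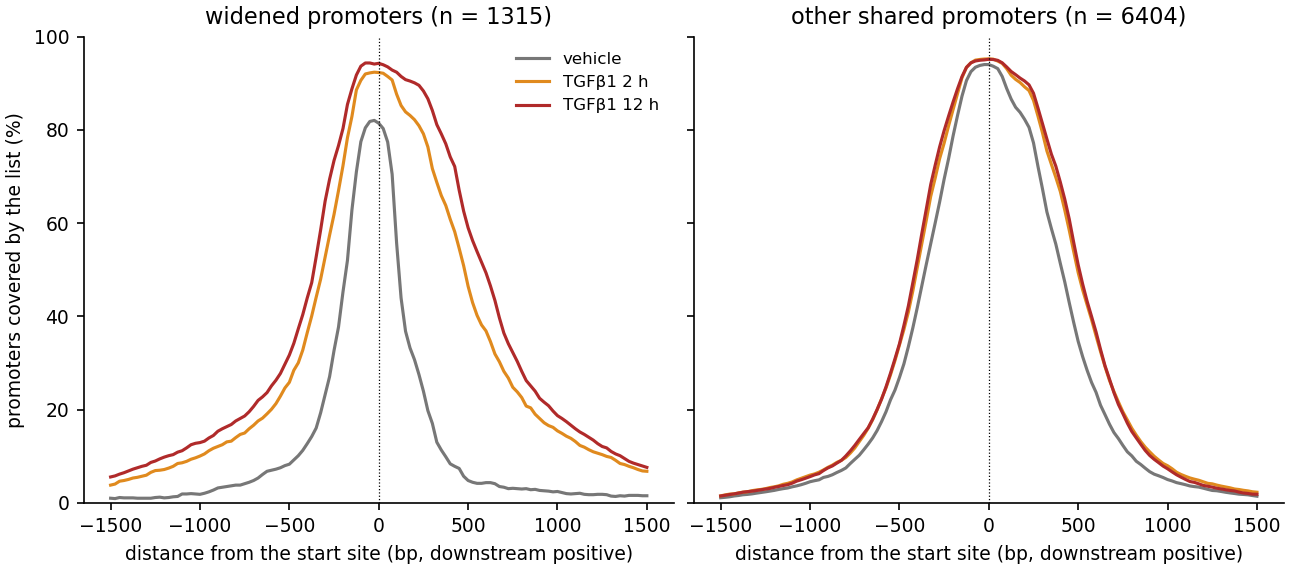
Percentage of promoters covered by each list (y axis) at each distance from the start site in bp (x axis, downstream positive), for 1315 widened promoters (left) and 6404 other shared promoters (right) with start sites on a single strand. Among the members the share at 250 bp downstream is 24.0% in vehicle, 79.2% at 2 h and 88.4% at 12 h, and among the others it is 77.2%, 86.4% and 87.9%.

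Of the DNA added at 12 h to these 1315 single-strand members, 64.2% lay downstream of the start site, against 44.5% of their vehicle DNA. The 6404 other shared promoters on a single strand had 61.3% of their added DNA downstream and 52.4% of their vehicle DNA. The side of the added DNA was thus similar in both sets and the side of the vehicle DNA was not. The ends were compared at the 1275 single-strand members with a single region in both lists. Both ends lay at least 100 bp further out at 12 h in 623 (48.9%). The downstream end alone did so in 509 (39.9%) and the upstream end alone in 143 (11.2%). The median shift at these 1275 members was 407 bp at the downstream and 155 bp at the upstream end, and at 6359 others on a single strand it was 51 bp and 24 bp. Over all 1457 members the start site itself lay inside a vehicle region in 82.5% and inside a 12 h region in 94.6%. All 7324 others had 94.7% and 95.7%. In 176 members it was covered at 12 h but not in vehicle. The added DNA held an annotated start site in 491 members (33.7%) and in 7.73% of the others, which by the choice of the members had less added DNA each. Per kb of added DNA these were 0.425 promoters with such a start site among the members and 0.390 among the others. Counted as single start sites there were 0.784 per kb of added DNA in the members and 0.519 in the others.

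A region could be wider because an interval was longer or because further intervals joined it. In 981 members a single interval in vehicle faced a single interval at 12 h. More intervals at 12 h than in vehicle were counted in 429 members (29.4%, 27.2 to 31.8%), with 1 interval more in 378, 2 more in 46 and 3 more in 5. The share over all shared promoters was 7.90%, and nothing is read from the difference, since added intervals enter the width that chose the members. With gaps between merged intervals left out, 1294 members (88.8%) covered at least 2 times as much at 12 h as in vehicle. Over all shared promoters this share was 15.3%, which is nearly the share of members itself, since the choice used almost the same quantity. Gaps made up 12.5% of the members' 12 h DNA and 2.87% of that of the others. The count of added intervals rests on merging and on list length, since it was 3.17% of members when intervals were merged only where they overlapped or touched, and 7.96% when the TGFβ lists were shortened.

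The 10 members with the largest gains each had more intervals at 12 h than in vehicle. Their widths and added DNA include the gaps between merged intervals. With gaps left out, Anxa2 covered 1213 bp in vehicle and 2601 bp at 12 h, and Mef2d 986 and 2280 bp. Gm13507 (893 and 1566 bp) and Cic (1663 and 2551 bp) then stayed under 2 times vehicle, and the others of these 10 did not. Anxa2, the gene of a calcium-dependent membrane and actin binding protein (chr9:69301240-69306386), had 1213 bp (vehicle), 2321 bp (2 h) and 5139 bp (12 h). These lay in 2, 3 and 5 intervals, and 3695 bp of its added DNA lay downstream of the start site. Its vehicle intervals lay at -633 to -240 bp and at 3685 to 4503 bp (downstream positive), so they left the start site uncovered. At Mef2d, a MADS-box transcription factor gene (chr3:87942252-87946779), the widths were 986, 1554 and 4524 bp, and the added DNA lay upstream, over 3510 bp. Both were wider at 12 h than at 2 h, and the 2 h list held 28.5% and 15.9% of their added DNA. Arid1b, a subunit gene of the BAF remodelling complex (chr17:4993903-4997573), had 496, 2344 and 3671 bp. Cux1, a homeodomain factor gene (chr5:137041955-137044939), had 246, 1468 and 2985 bp, the highest 12 h ratio of all members. These 2 promoters had added DNA on both sides of the start site, 2121 bp upstream and 1054 bp downstream at Arid1b and 1635 bp and 1104 bp at Cux1. Gm13507, a gene model, had 893, 3524 and 3520 bp, and Arhgef40, a guanine nucleotide exchange factor gene, had 562, 3070 and 3034 bp, so that both had their 12 h width by 2 h. Pcdh7, a protocadherin gene, had 805, 1651 and 3690 bp, Zfp36l1, the gene of an RNA-binding protein that promotes mRNA decay, had 568, 1178 and 3226 bp, and 1110012J17Rik had 790, 1983 and 3150 bp. Cic, the gene of the transcriptional repressor Capicua, had 1748, 2883 and 4127 bp, and its added DNA held 4 AP-1 words. Its vehicle bp were the most of all members, summed over separate vehicle regions. The vehicle intervals of Pcdh7, Gm13507, Arhgef40 and Cic also left the start site uncovered.

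**Figure D4:**
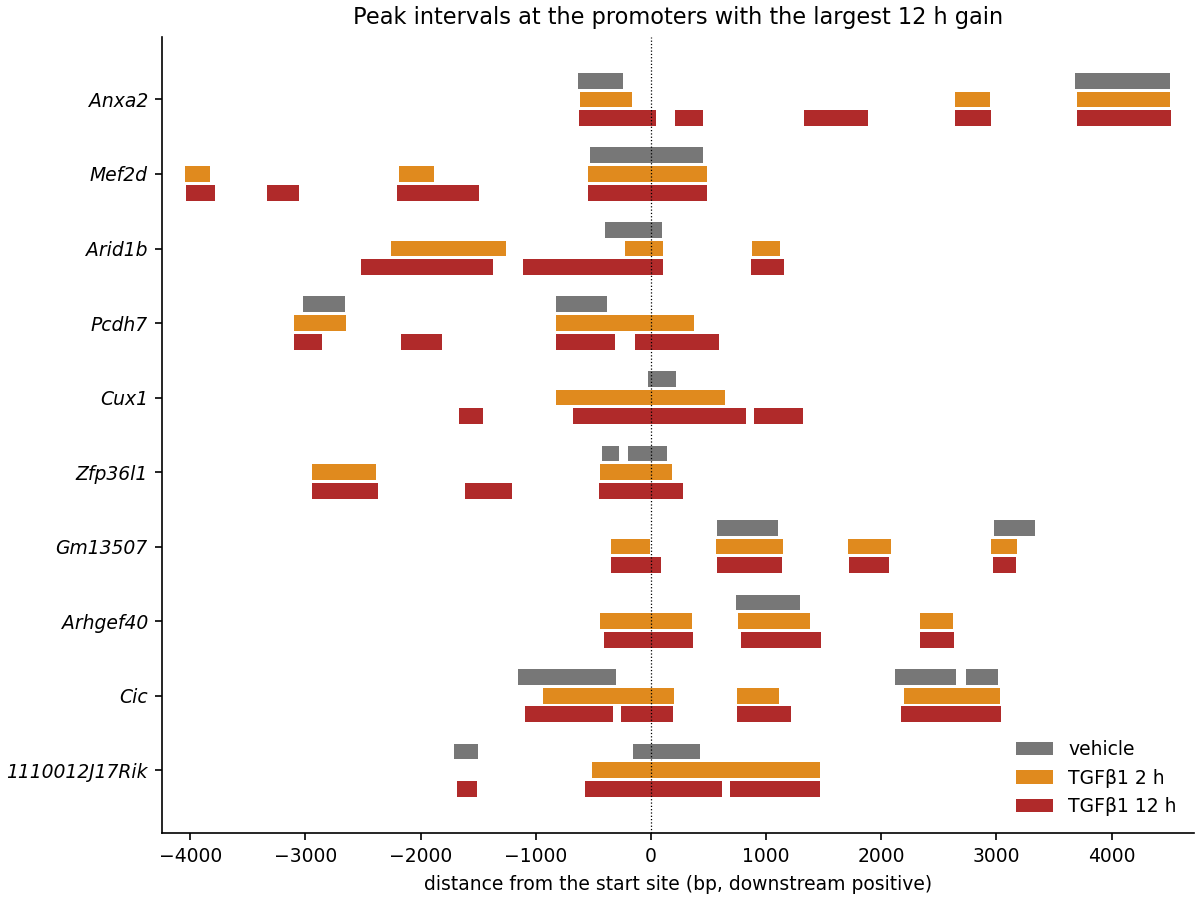
Intervals of the vehicle (grey), 2 h (orange) and 12 h (red) lists at the 10 members with the largest 12 h gain, by distance from the start site in bp (x axis, downstream positive). Further 12 h intervals appear beside the vehicle intervals in most rows, as in Anxa2 with 2 intervals in vehicle and 5 at 12 h.

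Among members with at least 300 bp in vehicle the 10 highest 12 h ratios were at Arid1b, Spns2, Vav2, Hivep2, Ltbp4, Tfip11, Ltbp3, Stat6, Pmepa1 and Bcl7a, genes of varied roles. Spns2, a sphingosine-1-phosphate transporter gene, had 367 bp (vehicle), 1825 bp (2 h) and 2713 bp (12 h). Vav2, also a guanine nucleotide exchange factor gene, had 311, 1302 and 2246 bp, and Hivep2, a zinc finger factor gene, had 378, 2074 and 2663 bp. Stat6, the gene of the transcription factor of interleukin-4 signalling, had 415, 2002 and 2449 bp, and Bcl7a, a further BAF subunit gene, had 363, 1729 and 2092 bp. At 2 h these 5 promoters stood between 4.19 and 5.49 times their vehicle width, and each was wider again at 12 h. The 2 h list covered 78.0% of the added DNA at Stat6, 65.4% at Hivep2 and 62.1% at Spns2. At Vav2 it covered 43.7% and at Bcl7a 37.0%.

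The members lay within 1000 bp of the start of 1531 protein-coding genes, 16.5% of the 9261 such genes at shared promoters, and gene groups are read against that share. Over all shared promoters the median 12 h to vehicle ratio was 1.25, and over the promoters of each of the 15 gene lists it ran from 1.08 for the AP-1 family to 1.51 for the extracellular matrix, with 1.25 for the MAP kinase pathway. Of the TGFβ ligands, receptors and storage proteins 2 of 14 genes at shared promoters lay at a member, Ltbp4 and Ltbp3. The latter (chr19:5741602-5744087) had 391, 2146 and 2486 bp. The union regions of both genes lay near the assigned start site without holding it. Of the SMAD proteins and their partners 5 of 24 did, namely Pmepa1, Smurf1, Tgif1, Crebbp and Smad1. Smurf1, the gene of a ubiquitin ligase for SMADs and receptors, had 714, 1367 and 2623 bp, and Tgif1, a SMAD corepressor gene, had 920, 2425 and 2530 bp. Crebbp, an acetyltransferase and coactivator gene, had 615, 1683 and 1572 bp. The added DNA of Smurf1 was covered to 34.2% at 2 h and that of Tgif1 to 91.0%.

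Among transcription factors of the epithelial-mesenchymal transition 4 of 14 genes lay at a member. Zeb1, a repressor of epithelial genes, had 499 bp (vehicle), 1365 bp (2 h) and 1714 bp (12 h), and its relative Zeb2 had 671, 1287 and 1342 bp, exactly at the threshold. Sox9 had 330, 1095 and 1195 bp, and Tead1, a DNA-binding partner of YAP, had 655, 1137 and 1373 bp. Most of the added DNA at these 4 genes lay downstream of the start site. Of the AP-1 and related basic leucine zipper genes 3 of 16 were at a member. Fos had 1114, 2400 and 2315 bp, Creb1 had 774, 1298 and 1620 bp, and Crem had 184, 591 and 599 bp. The 2 h list covered all of the added DNA of Fos, and its added DNA lay mostly upstream.

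The extracellular matrix list had the highest share, 6 of 14 genes (42.9%, Wilson 95% interval 21.4 to 67.4%), and 5 of 13 with shortened TGFβ lists, where 12.1% of all protein-coding genes lay at a member. Ctgf, a matricellular growth factor gene, had 432, 841 and 1764 bp, and Plaur, the urokinase receptor gene, had 571, 1700 and 1727 bp. Thbs1, the gene of thrombospondin 1, had 889, 1951 and 1975 bp, and Col1a1, a chain of type I collagen, had 486, 888 and 1211 bp. The others were Lama5 and Loxl2. The union region of Col1a1 did not hold the start site itself. Plaur and Thbs1 were near their 12 h width at 2 h, and Ctgf and Col1a1 were not. Of the integrin and focal adhesion genes 2 of 21 were at a member, Itga3 with 786, 2145 and 2398 bp and Ptrf, a caveolar coat gene, with 416, 1674 and 1801 bp.

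For the actin cytoskeleton 8 of 37 genes lay at a member (21.6%), but 2 of 32 with shortened TGFβ lists, Limk2 and Mkl2. With each ratio divided by the median of all shared regions it was 5 of 37 (13.5%), against 8.47% of all protein-coding genes. Besides Anxa2, Tpm4, a tropomyosin gene, had 737 bp (vehicle), 2083 bp (2 h) and 2100 bp (12 h), and Rock2, the gene of a kinase that promotes actomyosin contraction, had 1180, 2483 and 2406 bp. Of the epithelial junction and polarity genes 2 of 22 lay at a member (9.09%, 2.53 to 27.8%). This was the lowest share of the 15 lists in the main setting alone. With shortened TGFβ lists it was 1 of 22, and the cell cycle list was lower with 1 of 23. With each ratio divided by the median of all shared regions it was again 2 of 22, against 8.47% of all protein-coding genes. There the proteasome list was lowest, with 1 of 36 (2.78%). Dsp lay at a member in each of these settings. It encodes desmoplakin, which ties desmosomes to keratin filaments, and had 579, 2000 and 2850 bp. The added DNA of Dsp lay downstream of the start site in full.

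In the MAP kinase pathway 10 of 30 genes were at a member (33.3%, 19.2 to 51.2%), and 6 of 28 with shortened TGFβ lists. The 4 largest gains in the list were at Spred2, Dusp4, Spry2 and Egr2. Spred2 had 651, 1988 and 2417 bp, Spry2 had 858, 2172 and 2345 bp, and both encode inhibitors of receptor tyrosine kinase signalling. Egr2, an immediate early zinc finger gene, had 555, 1900 and 1923 bp. The others were Braf, Dusp4, Erbb2, Map2k3, Map2k6, Mapk3 and Spry4. Of the cell cycle genes 5 of 25 were at a member, and 1 of 23 with shortened TGFβ lists, Cdkn2c. Cdkn2a, the gene of p16 and ARF, had 692, 2410 and 2351 bp, and Cdkn2c, the gene of p18, had 930, 1590 and 2034 bp, while Cdkn1a and Myc were wide at 12 h alone and Cdc25a was the fifth. Of the Hippo pathway 2 of 16 were at a member, the kinase gene Lats2 with 451, 1082 and 1280 bp and the scaffold gene Nf2 with 555, 1275 and 1221 bp.

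Chromatin genes were at members in 7 of 41 cases (17.1%), near the share of all genes. Brd2, a bromodomain gene, had 252 bp (vehicle), 1980 bp (2 h) and 1982 bp (12 h), Tet3, a methylcytosine dioxygenase gene, had 914, 2467 and 2502 bp, and Dnmt3a, a DNA methyltransferase gene, had 308, 1359 and 1100 bp. Housekeeping groups were also present, with 16 of 71 ribosomal protein genes (22.5%, 14.4 to 33.5%), 14 of 64 genes of the respiratory chain and ATP synthase (21.9%, 13.5 to 33.4%) and 4 of 36 proteasome genes (11.1%). Rpl11 had 294, 873 and 980 bp, Rps3 had 365, 584 and 1043 bp, Atp5l had 232, 560 and 1134 bp, and Psmb5 had 191, 449 and 1012 bp. Rpl11 was near its 12 h width by 2 h, and Rps3, Atp5l and Psmb5 were not. The gains of these short promoters, between 678 and 902 bp, were close to the median gain of the members, 662 bp.

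The sequence around the start site differed with vehicle width. In the 1000 bp centred on it, the members had a median GC content of 58.4% and a CpG ratio, observed over expected, of 0.726, and the other shared promoters had 60.5% and 0.766. GC over 50% together with a CpG ratio over 0.6, a common mark of CpG islands, was found in 68.5% of members and 80.3% of the others. Within each class of vehicle width the order was the opposite. Among promoters 150 to 249 bp wide in vehicle the members had 54.4% GC and the others 51.3%, among those of 350 to 449 bp the values were 58.6% and 54.7%, and among those of 600 to 799 bp they were 62.6% and 58.9%. The smallest difference was at 800 bp or more, with 64.3% and 63.8%. At a given vehicle width the members were thus the more GC-rich promoters. The TATA word 40 to 16 bp upstream was found in 11 members (0.755%) and in 0.724% of the others. The vehicle peak score was at its highest value of 1000 in 43.5% of members and 75.2% of the others.

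Motif words were counted on both strands in the members' vehicle regions, in the DNA added at 12 h and in 500 bp on either side of the union region. The words were TGACTCA for AP-1, TGACGTCA for CRE, GTCTAGAC for SMAD, ACATTCC for TEAD, CAGGTG for E-boxes, TGTGGTT for RUNX, CCGGAAG for ETS, GGGCGG for SP/KLF, CCAATC and CCAATG for NF-Y, GCGCATGC for NRF1 and AAGATGGC for YY1, and none of them contains another. AP-1 words had a density of 0.254 per kb in the added DNA (exact Poisson 95% interval 0.225 to 0.284) and of 0.291 per kb in the vehicle DNA (0.25 to 0.336), whose intervals overlap, and were less dense in the flanks, 0.130 per kb (0.112 to 0.150). In the other shared promoters AP-1 words stood at 0.163 per kb (0.153 to 0.173) in the vehicle DNA. Their added DNA held 0.196 per kb (0.174 to 0.220) and their flanks 0.117 per kb (0.109 to 0.125). AP-1 words thus did not thin out in the added DNA of the others either. Words of core promoter factors thinned out from the vehicle DNA to the added DNA. The density of ETS was 0.648 per kb in the vehicle and 0.154 per kb in the added DNA, that of SP/KLF 4.65 and 2.05, that of NRF1 0.206 and 0.0286, and that of CRE 0.114 and 0.0190. The other shared promoters showed the same fall, with ETS at 0.495 and 0.136 per kb and SP/KLF at 4.43 and 1.73. NRF1 stood there at 0.152 and 0.0234 and CRE at 0.0688 and 0.0138, so the fall was not particular to the members. The SMAD word was rare throughout, with 15 matches in the added DNA of 15 members.

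**Figure D5:**
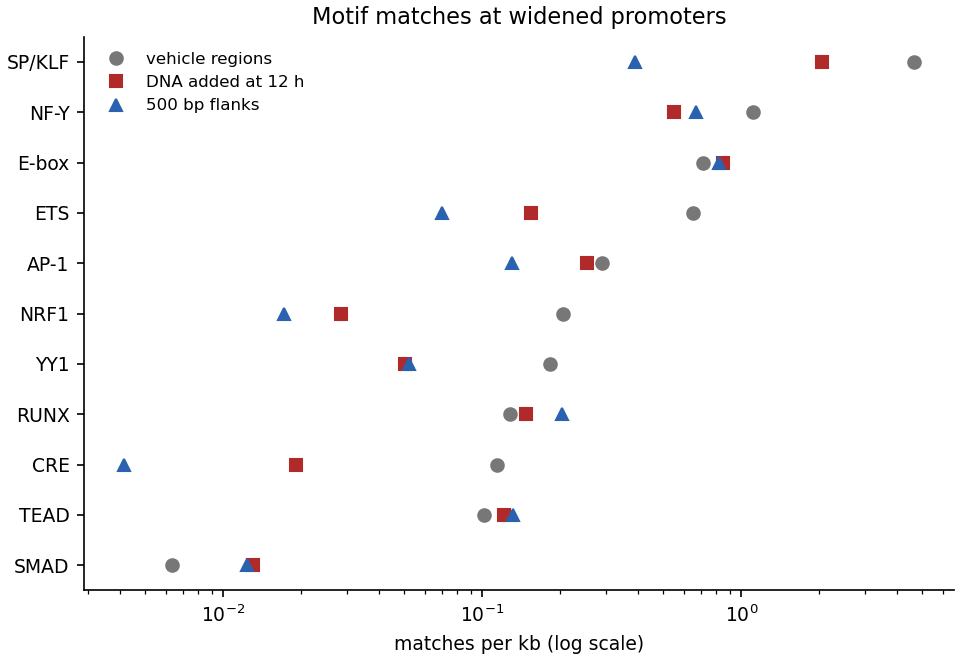
Motif words per kb (x axis, log scale) in the vehicle regions (grey circles), the DNA added at 12 h (red squares) and the 500 bp flanks (blue triangles) of the 1457 widened promoters. AP-1 stands at 0.291, 0.254 and 0.130 per kb, whereas ETS stands at 0.648, 0.154 and 0.0700 per kb.

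An AP-1 word lay in the added DNA of 238 members (16.3%, 14.5 to 18.3%), 293 words in all, and in that of 3.60% of the other shared promoters, which had less added DNA each. Per kb of added DNA the others had 0.196 (0.174 to 0.220). Within the members' added DNA the words were concentrated in the 12 h intervals themselves, with 0.295 per kb (0.262 to 0.332), against 0.0736 per kb (0.0420 to 0.119) in the gaps between merged intervals. The others had 0.201 per kb (0.178 to 0.226) in the intervals and 0.0614 per kb (0.0167 to 0.157) in the gaps. In the fixed window of 1000 bp around the start site members and others differed little. An AP-1 word was found there in 12.6% of members, 10.4% of the other shared promoters and 12.8% of all annotated start sites. In the same window ETS was found in 26.6% of members, 32.4% of the others and 16.3% of all start sites, and SP/KLF in 81.5%, 88.8% and 49.9%. NF-Y was found in 49.3%, 53.5% and 52.3%, NRF1 in 6.73%, 8.72% and 4.54%, YY1 in 10.0%, 11% and 8.07%, and CRE in 5.15%, 5.37% and 2.61%. TEAD was found in 8.72%, 8.41% and 11.4%, RUNX in 12.0%, 11.7% and 16.1%, E-boxes in 52.7%, 53.5% and 56.8%, and SMAD in 0.686%, 0.683% and 0.833%. A match describes the letters and not a bound site.

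Members were found on all 20 chromosomes with shared promoters. Their share of the shared promoters ran from 11.8% on chromosome 9 (9.27 to 15%) to 24.0% on chromosome 12 (19.2 to 29.6%). A distal region present in both TGFβ lists but not in vehicle lay within 50 kb of 45.4% of members (42.9 to 48.0%) and 42.6% of the others (41.4 to 43.7%), whose intervals overlap. Start sites on both strands were found at 142 members (9.75%) and 12.6% of the others.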

How the data were processed

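ATAC-seq was performed in NMuMG cells treated with vehicle for 2 h or TGFβ1 for 2 h or 12 h, with 2 replicates per group. The authors mapped the reads to mm9 (NCBIM37), called peaks with MACS2 2.1.2 and deposited 1 list per group of peaks that both replicates share, as genomic intervals. The vehicle list also holds a peak score deposited by the authors, with no scale given in the sources used here, and the same column of both TGFβ lists numbers the lines and was not used. Repeated lines were counted once. Widths are in bp, and coordinates are 1-based.

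Start sites were the 86879 distinct transcript 5′ ends of GENCODE vM1, and sequence was read from NCBIM37, the build of the files. No peak ran past a chromosome end. The start site used for each promoter was the one nearest the middle of its vehicle regions, protein-coding transcripts first. Added DNA is DNA inside the 12 h regions and outside the vehicle regions of a promoter. Shares have Wilson, medians binomial and densities exact Poisson 95% intervals, which cover counting error only. No test between groups was possible, since each group had 1 list. The members, the 15 gene lists and the motif words were chosen with earlier results of these data known. Named promoters were those with the 10 largest gains, the 10 highest 12 h ratios and 6 highest 2 h ratios with at least 300 bp in vehicle, the 6 largest gains no wider at 2 h than in vehicle, the 3 on each side of the threshold and up to 4 per gene list. A few of these are not reported here. Functions were tested on simulated intervals and planted words. The alternatives changed the merge distance, interval width, start sites, list length, gaps, ratio or chromosomes. For these, a percentage or median counted as moved outside the 95% interval of its main value (for added bp, an interval over promoters), and a count when changed by over 1.5 times. Python 3.11.15, numpy 2.4.6, pandas 2.3.3, scipy 1.17.1 and matplotlib 3.10.9 were used.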

Additional observations from a re-analysis of the deposited data

How the results depend on the processing

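The lists give 1 set of regions per condition, so no spread between replicates, no test and no result without a replicate could be computed, and the reads behind each peak, which set how wide it can be called, are not in the lists. No paired analysis was possible because both replicates of a group were pooled into 1 list. Of 101 recomputed values 48 stayed within the error of the main value and 53 moved. The main values were 1457 members, 16.6% of shared promoters, a median 2 h ratio of 2.30, 66.4% at 2 times vehicle or more at 2 h, 29.4% with more intervals, 64.2% of added bp downstream and 16.3% with an AP-1 word in added DNA. In the moved values the added bp stayed more often downstream than upstream, from 57.9% to 69.6%. With a merge distance of 500 bp the members were 15.1% of shared promoters, 21.1% had more intervals and 13% an AP-1 word. With 2000 bp these were 18.7%, 38.6% and 21.9%, the median 2 h ratio was 2.43, 69.4% stood at 2 times or more at 2 h and 57.9% of added bp lay downstream. With no merging beyond overlap the members were 13.2% of shared promoters, with a ratio of 2.21, 63.1% at 2 times or more at 2 h, 3.17% with more intervals, 69.1% of added bp downstream and 9.26% with an AP-1 word, where by construction an interval apart from the promoter no longer joins it. A minimum interval of 300 bp gave 13% of shared promoters, a ratio of 2.15 and 60.0% at 2 times or more at 2 h. With the TGFβ lists shortened there were 930 members, 12.2% of shared promoters, of which 68.8% stood at 2 times or more at 2 h, 7.96% had more intervals and 12.3% an AP-1 word, and 69.6% of added bp lay downstream; the cause was not tested. With gaps left out the members were 15.3% of shared promoters, with a ratio of 2.24, 63.6% at 2 times or more at 2 h, 22.0% with more intervals and 14.5% with an AP-1 word. A threshold of 1.5 gave 2856 members, 32.5% of shared promoters, with a ratio of 1.82, 39.6% at 2 times or more at 2 h, 19.9% with more intervals and 12.5% with an AP-1 word. A threshold of 3 gave 500 members, 5.69%, with a ratio of 3.29, 83.4% at 2 times or more at 2 h, 43.0% with more intervals, 61.1% of added bp downstream and 21.6% with an AP-1 word. Division by the median ratio of all shared regions gave 748 members, 8.52%, with a ratio of 2.86, 79.7% at 2 times or more at 2 h, 39.3% with more intervals and 20.5% with an AP-1 word. Restriction to promoters of at least 300 bp in vehicle, chosen after seeing the data, gave 12.1% of shared promoters, a ratio of 2.15, 59.8% at 2 times or more at 2 h, 37.0% with more intervals and 19.2% with an AP-1 word. No interval minimum, a start-site margin of 500 bp, protein-coding transcripts and autosomes alone moved none of the 7 values. Also chosen after seeing the data, a single annotated start site gave 65.0% of added bp downstream, and added DNA inside 12 h intervals gave 66.5% downstream and an AP-1 word in 15.9% of members, all within the error.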
